A study of Homo sapiens with 24 samples.

Results

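The genes described here are the 4 platelet-derived growth factor (PDGF) ligands, PDGFA, PDGFB, PDGFC and PDGFD, and the 2 PDGF receptors, PDGFRA and PDGFRB. They were found in the count table by symbol through their Ensembl identifiers, and make up 6 of its 58676 genes. RNA was measured by bulk RNA-sequencing of HSJD-DIPG-007, an established human diffuse midline glioma (DMG) line, to ask which transcripts change when PRMT5 is inhibited. PRMT5 places symmetric dimethyl marks on arginines of histones, splicing factors and other proteins, and LLY-283 inhibits it by binding the pocket for its methyl donor.

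PDGF ligands are secreted dimers that bring 2 receptor tyrosine kinase chains together. PDGF-A chains bind PDGFRα, PDGF-B chains bind both PDGFRα and PDGFRβ, and PDGF-C and PDGF-D are released as latent proteins whose CUB domains must be cut off by proteases before they bind mainly PDGFRα and PDGFRβ, respectively. Activated receptors recruit phospholipase Cγ, PI3-kinase, SRC kinases, SHP2 and GRB2-SOS, and so feed the RAS-ERK and AKT pathways. In the developing brain PDGFRα marks oligodendrocyte precursor cells, for which PDGF-A is a mitogen, whereas PDGFRβ is typical of pericytes and fibroblasts. PDGFRA is a recurrent target of amplification or mutation in paediatric high-grade glioma, and PDGF-driven growth of brainstem precursors is used to model these tumours in mice.

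All 24 libraries came from the same line, which the labels give as H3F3A K27M, ACVR1 R206H and PIK3CA MIS, a missense change per the study, so every vehicle culture carried these alleles too. Cells were grown as spheroids and received vehicle (12 libraries) or LLY-283 at its GI(40), a partly growth-inhibiting dose given once per the labels, with medium and dose renewed after 5 days per the study's methods. Each treatment has 3 libraries at day 0, 3 at day 5, 2 at day 7 and 1 each at days 1, 2, 3 and 10. The study calls its repeats technical, so p-values measure the spread between repeats of 1 line and not between independent cultures. Recombinant PDGF-AA and PDGF-BB were part of the growth medium in both arms, and the levels below are of the cells' own RNA, not of PDGF protein.

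The libraries held 13835205 to 23190369 counts (median 18688160.5). At day 7 the labels and the data were at odds: of 4304 genes called at day 5, 94.8% had the same sign of treatment difference between the repeat 1 libraries, but 19.6% between the repeat 2 libraries, so the latter are written as the libraries labelled LLY-283 or vehicle. In the library of LLY-283 at day 2, vehicle repeat 3 at day 5 and vehicle repeat 1 at day 7, the fibroblast collagen COL1A1 stood at 30.4 to 52.7 counts scaled to a common library total (CPM), against 4.63 to 10.97 in the other 21, with 11 of 12 fibroblast markers at 1 CPM or more against 6 to 9. Of markers of PDGFRA-expressing precursors, CSPG4, the NG2 proteoglycan, had the highest mean and lay between 1153 and 1385 CPM, OLIG2 between 229 and 366 and OLIG1 between 124 and 228, while SOX10 and PCDH15, which also define that lineage, had medians of 0.191 and 0.141 CPM. The summed level of 7 endothelial markers, led by PECAM1, was 9.29 to 29.3 CPM, that of 10 pericyte and smooth muscle markers, led by ACTA2, was 65.1 to 124 CPM, and that of 7 microglial markers, led by CD68, was 0.0599 to 1.1996 CPM, with TYROBP at 0 in all 24.

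All 6 genes were detected in every library, but over a wide range. Compared per kilobase of the reference (MANE Select) transcript, PDGFA was the most abundant, with a median of 39.04 CPM per kb over the 24 libraries (range 28.8 to 53.9). PDGFB followed at 20.6 (12.3 to 26.7), PDGFRA at 19.5 (12.4 to 33.7) and PDGFC at 13.1 (10.2 to 21.2). Far below these were PDGFRB at 2.46 CPM per kb (1.79 to 3.79) and PDGFD at 0.369 (0.175 to 0.561). PDGFA and PDGFB did not overlap, nor did PDGFC and PDGFRB or PDGFRB and PDGFD, whereas the ranges of PDGFB, PDGFRA and PDGFC overlapped. By the reference transcript length, the order of PDGFB and PDGFRA, neighbours over all libraries, turned with time in vehicle cells. These held 23.5 ± 0.924 CPM per kb of PDGFB and 12.5 ± 0.176 of PDGFRA at day 0 (SD, n = 3), and 18.8 ± 1.35 and 24.9 ± 0.428 at day 5. With the union of all annotated exons as the length the order of the medians was the same, at 23.3, 19.3, 13.0, 10.0, 1.96 and 0.332 CPM per kb. Orders within days were not all kept. By that length vehicle PDGFB and PDGFRA averaged 21.9 and 8.38 CPM per kb at day 0. At day 5 they averaged 17.6 and 16.6 with vehicle, without a turn, and 11.6 and 21.8 with LLY-283. Vehicle PDGFA averaged 18.4 at day 0, below PDGFB, and the ranges of PDGFA and PDGFB overlapped.

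**Figure D1:**
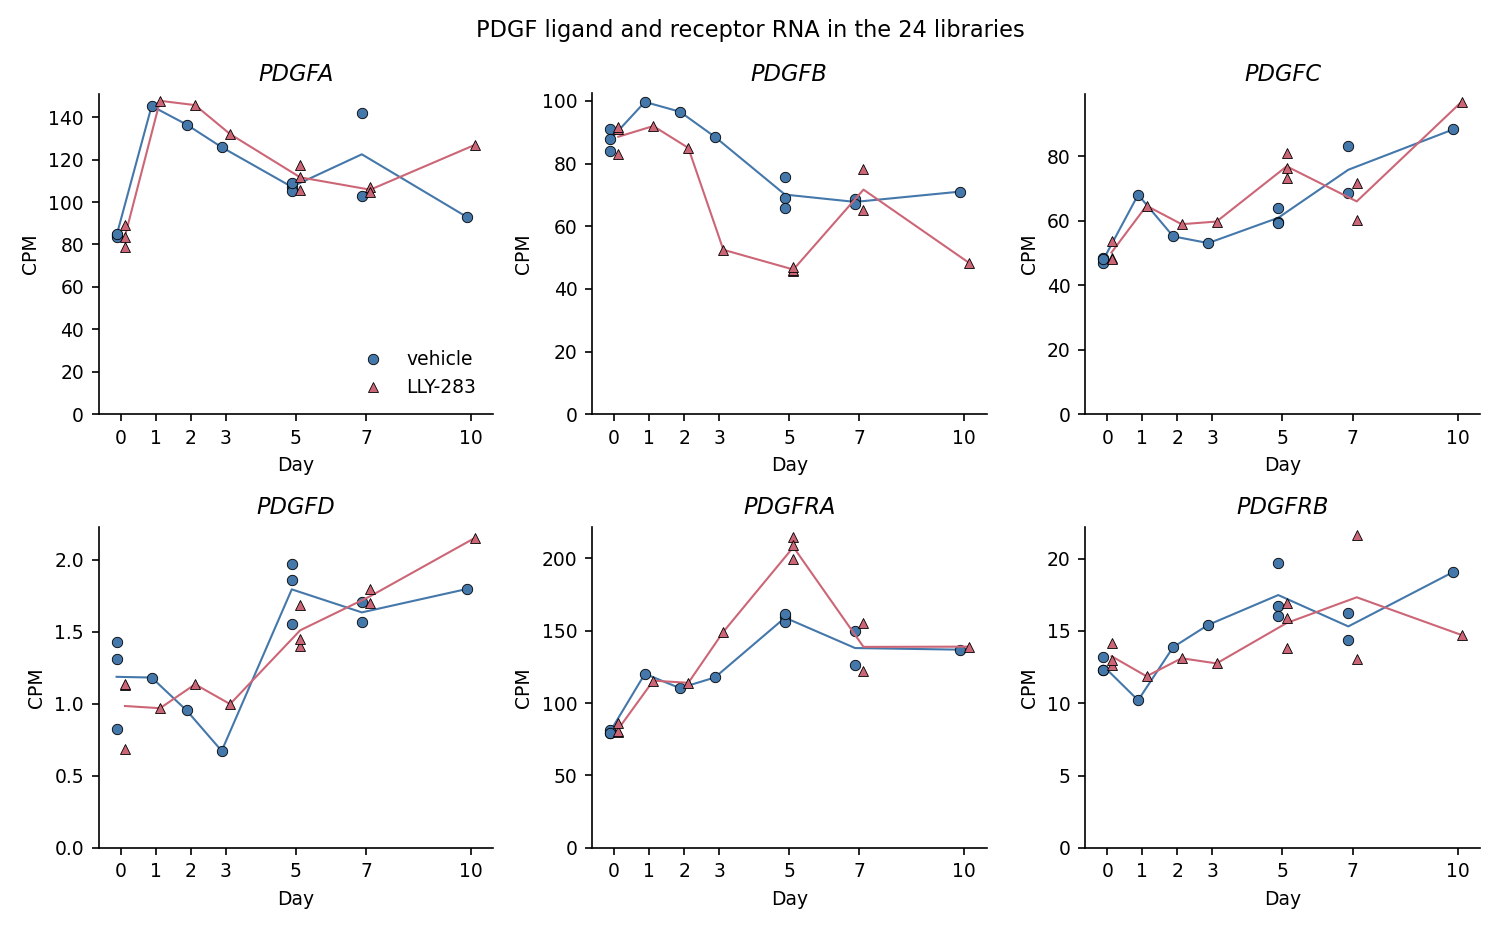
Level of each PDGF gene in CPM (vertical axis, linear from 0) against day (horizontal axis) for vehicle (blue circles) and LLY-283 (red triangles), 1 point per library; lines join the means of the days. PDGFB in the LLY-283 libraries of days 3, 5 and 10 lies at 45.8 to 52.5 CPM against 65.8 to 88.5 in the matching vehicle libraries. At day 7 it lies at 65.1 and 78.3 CPM in libraries labelled LLY-283 and at 68.6 and 67.0 in those labelled vehicle. PDGFRA climbs from 79.2 to 86.0 CPM at day 0 to 199 to 215 in LLY-283 libraries at day 5.

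At day 5, the only treated day with 3 libraries per arm whose labels and data were not at odds, PDGFB was lower and PDGFC and PDGFRA were higher with LLY-283, and PDGFA, PDGFD and PDGFRB did not pass the test. A gene was called when its p, from the quasi-likelihood test of edgeR and Benjamini-Hochberg adjusted over all genes tested, was under 0.01. The 3 calls of 6 stand against 26.1% of all 16491 genes tested at that day, 12% called higher and 14.1% called lower. For the same 3 genes the groups did not overlap, as was so for 46.3% of all genes.

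PDGFB (ENSG00000100311, minus strand of chromosome 22, 39223359 to 39244982 in GRCh38) encodes the ligand chain that engages both receptors. At day 5 it stood at 75.6, 68.9 and 65.8 CPM in vehicle and at 45.8, 45.9 and 46.9 CPM in LLY-283 libraries. The 3 treated libraries lay close together and all below the lowest vehicle library, with the mean 34.1% lower. The fitted log2 fold change was -0.58 (SE 0.052, 95% interval -0.69 to -0.47, adjusted p = 1.2e-09 by edgeR), which ranked 175 by p of the 16491 genes. Without vehicle repeat 3, the library of that arm with the high COL1A1, it was -0.63 (adjusted p = 2.1e-08). In bulk RNA, fewer cells with a transcript and less transcript per cell cannot be told apart, here and for the other members.

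PDGFC (ENSG00000145431, minus strand of chromosome 4, 156760454 to 156971799) encodes a latent, CUB-domain ligand of PDGFRα. Its day 5 levels were 59.4, 59.2 and 64.0 CPM in vehicle and 81.1, 76.3 and 73.1 CPM with LLY-283. Every treated library was above every vehicle library, with the mean 26.2% higher, and the log2 fold change was 0.36 (SE 0.047, 95% interval 0.26 to 0.46, adjusted p = 7.6e-07 by edgeR). The 12 fibroblast markers, per total count alone, summed to 466 to 474 CPM with LLY-283. With vehicle they summed to 327, 338 and 449 CPM, the last in repeat 3. The further scaling of PDGFC divided by 0.979 in vehicle repeat 3 and by 0.989 to 1.03 with LLY-283. That would narrow the gap to repeat 3, so groups apart were not shown on that scale. Of 9 tested, 3 were called higher and 0 lower, against 12% and 14.1% of all genes. Those 3, COL5A2, LUM and POSTN, are matrix genes. The other 6 tested did not pass: log2 values were 0.60 for FAP and 0.04 for PRRX1, and negative for COL1A1 (-1.55), COL1A2 (-2.86), COL6A3 (-0.78) and DCN (-0.62). The SEs of the negative values were 1.03, 1.91, 0.51 and 0.93, in the same order. COL1A1, COL1A2, COL6A3 and DCN were all highest of the 24 libraries in vehicle repeat 3 of day 5. There COL1A1 stood at 52.7 CPM against a median of 7.89, and COL1A2 at 36.1 against 1.07. Over the 24 libraries PRRX1 lay between 66.5 and 94.6 CPM and TWIST1 was at 0 in 16, and the part of this list in the PDGFC difference was not tested. Without vehicle repeat 3 the log2 fold change of PDGFC was 0.39 (adjusted p = 5.6e-06).

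PDGFA (ENSG00000197461, minus strand of chromosome 7, 497258 to 520296), whose product is the classical precursor mitogen, stood at 107, 105 and 109 CPM in vehicle and 118, 105 and 112 CPM in LLY-283 libraries at day 5. The groups overlapped, and the log2 fold change of 0.08 (SE 0.041, 95% interval -0.00040 to 0.17) did not pass (adjusted p = 0.11). PDGFD (ENSG00000170962, minus strand of chromosome 11, 103907189 to 104164379), the latent ligand of PDGFRβ, had 11 to 47 counts per library. Its 1.86, 1.97 and 1.55 CPM with vehicle and 1.40, 1.68 and 1.45 CPM with LLY-283 gave a log2 fold change of -0.23 with an interval from -0.76 to 0.31 (adjusted p = 0.54). Changes of PDGFD within that interval were not excluded by these libraries, and 193 bases of its exons lie opposite DDI1 on the other strand.

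PDGFRA (ENSG00000134853, plus strand of chromosome 4, 54229280 to 54298245) encodes PDGFRα. At day 5 its levels were 160, 156 and 161 CPM in vehicle and 215, 209 and 199 CPM in LLY-283 libraries. These groups too were apart, the treated mean was 30.7% higher, and the log2 fold change was 0.41 (SE 0.037, 95% interval 0.34 to 0.49, adjusted p = 9.4e-10 by edgeR), or 0.42 without vehicle repeat 3 (adjusted p = 1.6e-07). The 10 precursor markers summed, per total count alone, to 2461 to 2486 CPM with LLY-283 and 2296 to 2383 CPM with vehicle. The further scaling of PDGFRA divided by 0.965 to 0.979 with vehicle and 0.989 to 1.03 with LLY-283. That would narrow the gap between the sums, so groups apart were not shown on that scale. CSPG4, with a median of 1240 CPM over the 24 libraries against 2169 for all 10, did not pass (log2 0.07, adjusted p = 0.1 by edgeR). Of 8 markers tested, 2 were called higher, OLIG1 among them, and 2 lower, OLIG2 and SOX8, against 12% and 14.1% of all genes. Their part in the PDGFRA result was not tested. A readthrough gene, ENSG00000282278, shares 1533 bases of exon with PDGFRA on the same strand. It had counts in 5 libraries and at most 4.04% of the count of PDGFRA, and adding its counts to PDGFRA changed no call of a member.

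PDGFRB (ENSG00000113721, minus strand of chromosome 5, 150113839 to 150155872) encodes PDGFRβ, the receptor that PDGF-D and PDGF-B chains engage. With vehicle it stood at 16.7, 19.7 and 16.0 CPM and with LLY-283 at 13.8, 16.9 and 15.9 CPM at day 5. The groups overlapped, and the log2 fold change of -0.14 (SE 0.094, 95% interval -0.33 to 0.05) did not pass the test (adjusted p = 0.26). The 10 pericyte and smooth muscle markers, cells in which this receptor is usual, summed to 104 to 122 CPM with LLY-283 and 68.3 to 74.4 CPM with vehicle. Of 7 tested, ACTA2 (log2 0.70) and KCNJ8 (0.76) were called higher and RGS5 (-0.90) lower. Most of the sum was ACTA2, with a median of 63.2 CPM over the 24 libraries against 80.6 for all 10, so it mainly follows that gene.

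**Figure D2:**
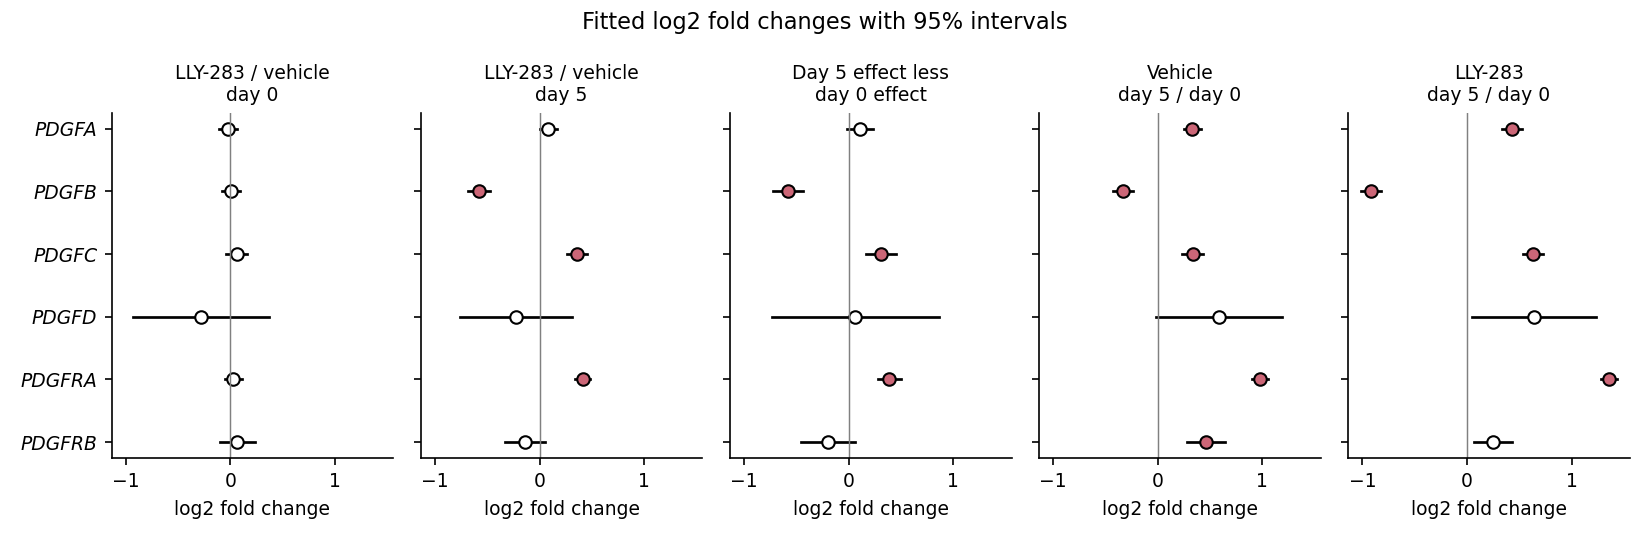
Fitted log2 fold changes (horizontal axis) of the 6 genes with 95% intervals, for LLY-283 over vehicle at day 0 and day 5, the difference between those effects, and day 5 over day 0 within each treatment; filled points passed an adjusted p under 0.01. PDGFB lies left of 0 in the day 5 panel (-0.58) and PDGFC (0.36) and PDGFRA (0.41) right of it, while all 6 intervals include 0 at day 0.

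At day 0 no member passed the test between treatments. Vehicle libraries held 84.1, 90.9 and 87.8 CPM of PDGFB against 91.2, 91.6 and 83.0 CPM in those labelled LLY-283, and 79.2, 81.3 and 79.4 CPM of PDGFRA against 79.7, 80.4 and 86.0 CPM. Log2 fold changes of the 6 genes lay between -0.28 (PDGFD) and 0.06 (PDGFRB), with adjusted p of 0.91 or more. None of the 6 was called by edgeR or DESeq2, 0 had an unadjusted p under 0.05 (5.69% of all genes did), and 0.0169% of all genes tested at that day were called.

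The change of the treatment effect from day 0 to day 5 was itself tested over the 12 libraries of those days. It was called for the same 3 genes, against 14.9% of all genes: the effect moved by -0.58 for PDGFB (SE 0.069, adjusted p = 5.6e-07), by 0.31 for PDGFC (SE 0.071, adjusted p = 0.0018) and by 0.39 for PDGFRA (SE 0.054, adjusted p = 4.3e-06), all log2 values by edgeR. The PDGFC call rested on the LLY-283 libraries of day 0: without repeat 2 or repeat 3 of that group its adjusted p was 0.013 or 0.01. When all 22 libraries of days 0 to 7 entered 1 fit, PDGFB alone was called, with adjusted p of 0.11 for PDGFC and 0.043 for PDGFRA. That fit called 51 of all genes, against 2742 in the fit of 12 libraries.

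From day 0 to day 5 most of the family changed in both arms, in comparisons whose libraries also enter the treatment contrasts. The libraries of day 0 and those of day 5 also fall in separate blocks of sample numbers. A change with time and a difference between those blocks cannot be told apart. In vehicle cells 4 of the 6 rose from day 0 to day 5 and 1 fell, where 22.2% of all genes were called higher and 16.7% lower, 38.9% in all. With LLY-283 3 rose and 1 fell, where 22.9% of all genes were called higher and 19.5% lower, 42.4% in all. PDGFRA moved furthest: from 79.2, 81.3 and 79.4 CPM to 160, 156 and 161 CPM with vehicle, a log2 fold change of 0.98 (SE 0.038, adjusted p = 6.3e-18). With LLY-283 it went from 79.7, 80.4 and 86.0 CPM to 215, 209 and 199 CPM, a log2 fold change of 1.36 (SE 0.037, adjusted p = 3.1e-19). Thus PDGFRA at day 5 was 1.99 times its day 0 mean in vehicle and 2.53 times in LLY-283 cells, and no day 5 library reached down to a day 0 library. Of 8 precursor markers tested, 7 were called higher and 0 lower in each arm over these days. Their median log2 fold changes were 0.48 with vehicle and 0.51 with LLY-283, and their part in the PDGFRA rise was not tested.

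PDGFB fell in both arms, by a log2 value of -0.33 with vehicle (SE 0.048, adjusted p = 1.4e-06) and -0.92 with LLY-283 (SE 0.046, adjusted p = 2.1e-14). PDGFA and PDGFC rose in both. For PDGFA the log2 fold change was 0.33 with vehicle (adjusted p = 6.2e-08) and 0.43 with LLY-283 (adjusted p = 3e-08), and for PDGFC 0.33 (adjusted p = 2e-06) and 0.63 (adjusted p = 4.7e-11). PDGFRB rose with vehicle, from 12.3, 12.3 and 13.2 CPM to 16.7, 19.7 and 16.0 CPM (log2 0.46, adjusted p = 8.6e-05). With LLY-283 its 12.6, 13.0 and 14.1 CPM at day 0 and 13.8, 16.9 and 15.9 CPM at day 5 overlapped (log2 0.25, adjusted p = 0.019). These 2 changes of PDGFRB differed by a log2 value of -0.20 with a 95% interval from -0.46 to 0.06 (adjusted p = 0.27), so a difference between the arms was not shown. PDGFRB was called with LLY-283 without repeat 1 of day 5 (adjusted p = 0.0025), and with vehicle its adjusted p was 0.014 in the fit of all 22 libraries. PDGFD stood at 0.69 to 1.43 CPM at day 0 and 1.40 to 1.97 CPM at day 5, and passed in neither arm (adjusted p = 0.098 and 0.066).

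Days 1 to 3 had 1 library per arm each, so no difference at a single day could be tested. PDGFB was at 99.7 CPM with vehicle and 92.0 CPM with LLY-283 on day 1, at 96.6 and 85.02 CPM on day 2, and at 88.5 and 52.5 CPM on day 3. The treated library was thus 7.72%, 11.97% and 40.7% lower on these days. PDGFRA was at 120 CPM with vehicle and 115 CPM with LLY-283 on day 1, 110 and 114 CPM on day 2, and 118 and 149 CPM on day 3, when it was 26.8% higher with LLY-283. PDGFC went from 68.0 and 64.6 CPM on day 1 to 53.1 and 59.7 CPM on day 3, a treated level 12.6% higher on the latter day.

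With the 3 days pooled as pairs, none of the 6 genes was called by edgeR or DESeq2 at a background of 0.0104%, and none had an unadjusted p under 0.05, as 15.7% of all genes did. The log2 fold change of PDGFB was -0.33 with an SE of 0.14 (adjusted p = 0.34), of PDGFRA 0.12 (adjusted p = 0.47) and of PDGFC 0.07 (adjusted p = 0.62). These values rested on day 3: without its vehicle or its LLY-283 library they were -0.14 for PDGFB, 0.0012 or 0.00011 for PDGFRA and 0.014 or 0.013 for PDGFC. Without either library of day 1 they were -0.45 for PDGFB, 0.21 or 0.20 for PDGFRA and 0.14 for PDGFC, and none passed. PDGFA shared its early course between the arms: 145 and 148 CPM on day 1 with vehicle and LLY-283, 136 and 146 CPM on day 2, and 126 and 132 CPM on day 3. All 6 of these libraries were above every library of day 0, which held 79.0 to 89.3 CPM, and the day 1 level was 1.72 times the day 0 mean with vehicle and 1.76 times with LLY-283. PDGFRB was at 10.2 to 15.4 CPM and PDGFD at 0.673 to 1.18 CPM over these 6 libraries.

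**Figure D3:**
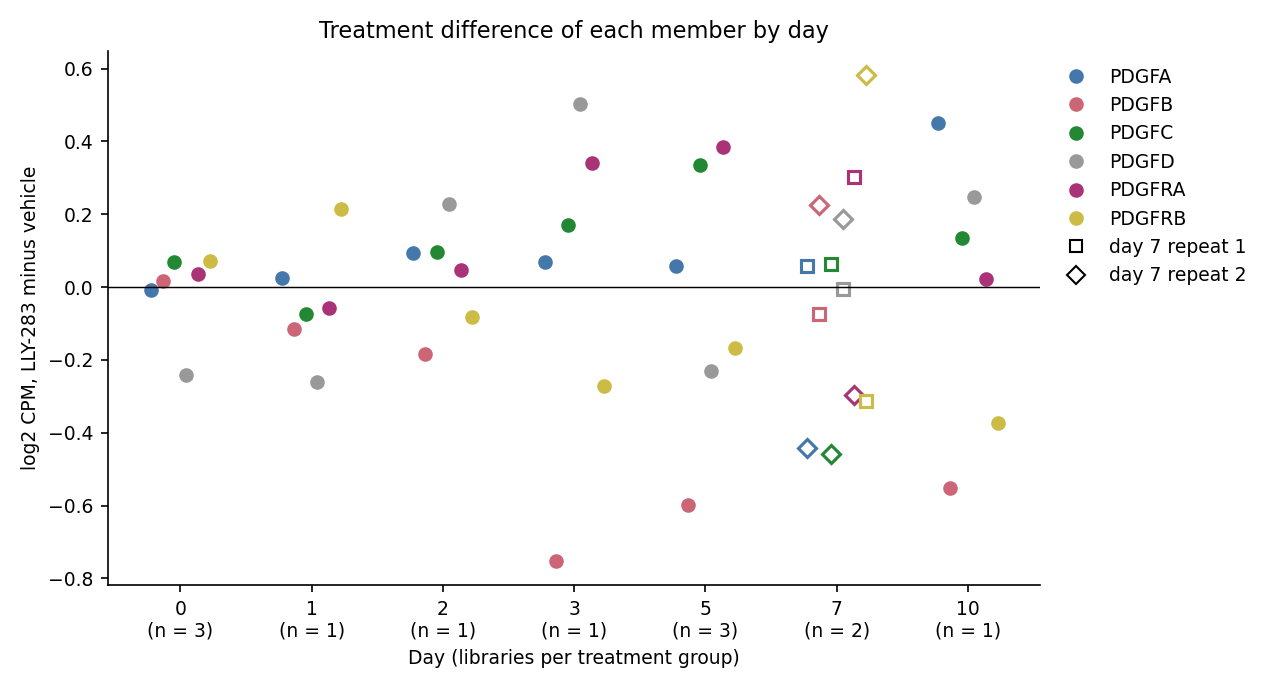
Log2 difference in CPM, LLY-283 minus vehicle (vertical axis), of each PDGF gene at each day (horizontal axis, number of libraries per group below); open squares and diamonds show the 2 pairs of day 7 apart. PDGFB lies at -0.12 on day 1, -0.18 on day 2, -0.75 on day 3, -0.60 on day 5 and -0.55 on day 10. Repeats 1 and 2 of day 7 lie on opposite sides of 0 for PDGFB (-0.07 and 0.22), PDGFRA (0.30 and -0.30) and PDGFRB (-0.31 and 0.58).

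At day 10, with 1 library per arm and so no test, PDGFB was again lower with LLY-283, at 48.4 against 71.1 CPM. PDGFRA was at 139 against 137 CPM, and PDGFC was at 96.9 against 88.3 CPM, the highest value of PDGFC among libraries of each arm. PDGFA was at 127 with LLY-283 and 92.9 CPM with vehicle, and PDGFRB at 14.7 and 19.1 CPM.

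The libraries of day 7 gave no call among the members or among any of 16826 genes by edgeR (background 0%). Of all genes, 236 (1.4%) had an unadjusted p under 0.05, none of them a member, and DESeq2 called 3, none of them a member. PDGFRA was at 126 CPM in vehicle repeat 1 and 156 CPM in LLY-283 repeat 1, but at 150 CPM in the library labelled vehicle repeat 2 and 122 CPM in the library labelled LLY-283 repeat 2. PDGFB was at 68.6 and 65.1 CPM in repeat 1, and at 67.0 and 78.3 CPM in the libraries labelled vehicle and LLY-283 of repeat 2. PDGFC, at 68.5 and 71.6 CPM in repeat 1, was at 83.0 and 60.3 CPM in the same order in repeat 2. The direction between libraries thus turned from one repeat to the other for all 3 genes. The fitted direction of PDGFRA and PDGFB turned with the library left out, that of PDGFC was negative each time, and none passed. Without the library labelled LLY-283 repeat 2 the log2 fold change of PDGFRA was 0.18, that of PDGFB -0.05 and that of PDGFC -0.07, and without that labelled vehicle repeat 2 they were 0.14, 0.07 and -0.05. Without LLY-283 repeat 1 they were -0.18, 0.21 and -0.33, and without vehicle repeat 1 -0.09, 0.11 and -0.31, in the same order.

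In the 22 libraries of days 0 to 7, a dependence of the treatment effect on day (interaction test of edgeR) was called for PDGFB (adjusted p = 0.0053, the fourth smallest p of all genes), where 6 genes, or 0.0289%, were called. PDGFC (adjusted p = 0.14) and PDGFRA (adjusted p = 0.18) did not pass, although 3 of the members had an unadjusted p under 0.05, as did 15.3% of all genes. This call was not robust to single libraries: the adjusted p of PDGFB was 0.012 to 0.033 without any 1 of 13 libraries, namely each of the 6 at day 5, both of day 3, the 3 of vehicle at day 0 and repeats 1 and 2 of LLY-283 at day 0. Within days 0 to 5, which leaves out day 7, PDGFB, PDGFC (adjusted p = 0.0061) and PDGFRA (adjusted p = 1.6e-05) were called. That fit called 1984 of all genes, against 6 in the fit of 22 libraries, so the rise in calls was not particular to the members.

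The makeup of ligand RNA differed between the arms at day 5 while its summed level overlapped. Summed over the 4 ligands, vehicle held 71.7 ± 1.24 and LLY-283 70.3 ± 2.74 CPM per kb of the reference transcript (SD, n = 3). The shares use this length too, and their order depends on it. By the union of exons PDGFB exceeded PDGFA at day 0, at 21.9 against 18.4 CPM per kb with vehicle and 22.2 against 18.3 with LLY-283. At day 5 PDGFB made up 26.2% ± 1.66 of the sum per kb of the reference transcript with vehicle (24.6 to 27.9%) and 17.6% ± 0.760 with LLY-283 (16.8 to 18.1%). PDGFC made up 18.6% ± 0.829 and 23.9% ± 0.868, and PDGFA 54.5% ± 0.894 and 57.9% ± 1.08. The groups were apart for these 3 shares, which add to nearly the whole and so are not independent, and no test was run on them. At day 0 the share of PDGFB was 36.1% ± 1.15 with vehicle and 36.2% ± 1.28 with LLY-283, at day 3 it was 29.2 and 18.6% in single libraries, and at day 10 26.2 and 16.0%.

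Among receptors, PDGFRA exceeded PDGFRB per kilobase in all 24 libraries. The ratio was 5.68 ± 0.268 with vehicle and 5.54 ± 0.105 with LLY-283 at day 0, and 8.20 ± 1.005 and 12.04 ± 1.60 at day 5 (SD, n = 3). At day 5 the vehicle libraries ranged from 7.07 to 8.99 and the treated ones from 11.02 to 13.9, so the ratios were apart.

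**Figure D4:**
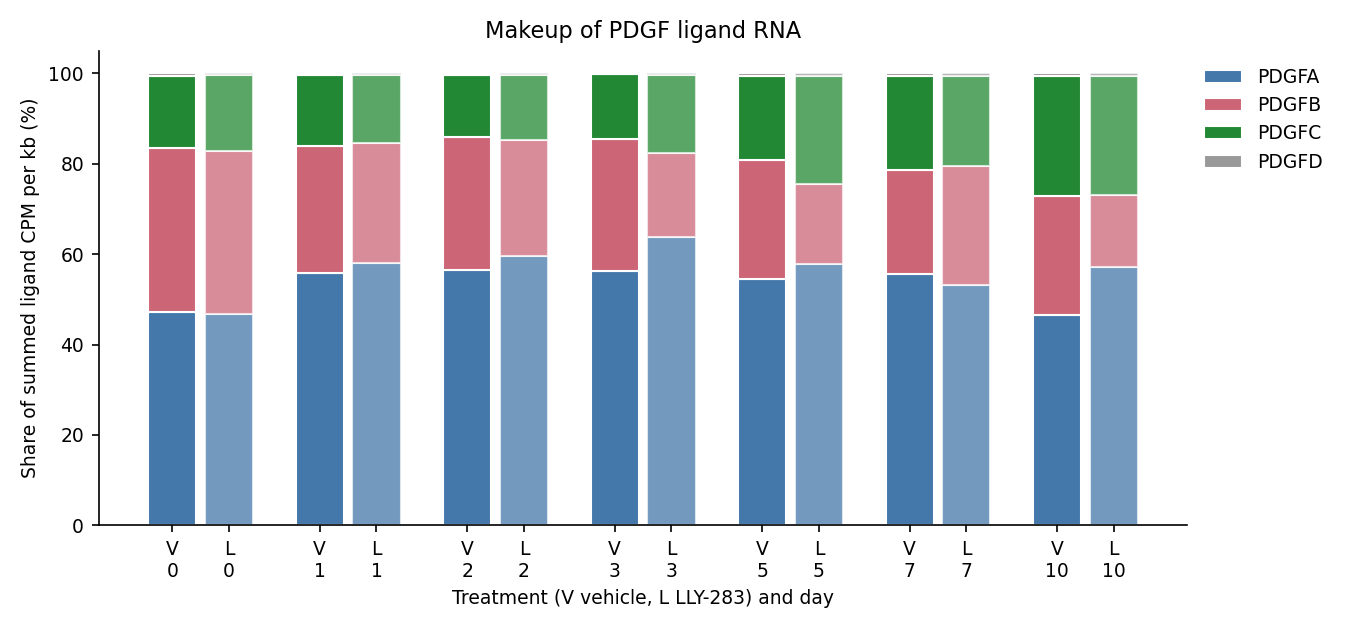
Share of each ligand in the summed ligand CPM per kb of the reference transcript (vertical axis, percent) in vehicle (V, dark) and LLY-283 (L, light) at each day (horizontal axis), as means of 3 libraries at days 0 and 5, 2 at day 7 by label and 1 otherwise. PDGFB falls from 36.1% at day 0 to 26.2% with vehicle and 17.6% with LLY-283 at day 5, and PDGFD stays under 1% throughout.

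The pathway around the receptors was read from lists by role, each described beside all genes tested at day 5, whose median log2 fold change was 0.02 and of which 26.1% were called, 12% higher and 14.1% lower. Of 10 proteases, co-receptors and matrix binders that process or hold PDGF ligands, 3 rose with LLY-283 and none fell (median 0.02), a share near that of all genes. These were LRP1, an endocytic co-receptor of PDGFRβ (99.2 ± 8.54 CPM with vehicle and 130 ± 6.21 CPM with LLY-283, log2 0.41, adjusted p = 1.5e-04), SPARC, which binds PDGF-B (log2 0.14, adjusted p = 0.0045), and PLAT, the tissue plasminogen activator that cleaves PDGF-CC (9.87 ± 1.02 and 12.3 ± 0.676 CPM, log2 0.35, adjusted p = 0.0092). LRP1 and PLAT lay apart between groups, as did 46.3% of all genes, and SPARC overlapped, at 362 to 385 CPM with vehicle and 378 to 427 CPM with LLY-283.

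Of 36 receptor adaptors and effectors, 4 rose and 5 fell (median -0.01), again near the 26.1% of all genes. PLCG1, the phospholipase that binds the activated receptor, went from 333 ± 2.68 to 472 ± 23.01 CPM (log2 0.53, adjusted p = 4.1e-11). MAP2K1, the kinase MEK1, fell from 147 ± 2.68 to 116 ± 6.87 CPM (log2 -0.32, adjusted p = 4.1e-07). NRAS fell from 147 ± 1.08 to 124 ± 9.09 CPM (log2 -0.22, adjusted p = 1e-04). Each of these 3 genes, picked by p in these same libraries, had groups apart, as had 46.3% of all genes.

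Of 16 attenuators, which dephosphorylate, ubiquitinate or otherwise damp the receptors and RAS, 2 rose and 1 fell (median -0.04), where 26.1% of all genes were called. They were the ubiquitin ligase CBLB (33.0 ± 1.89 to 41.9 ± 1.08 CPM, log2 0.37, adjusted p = 8.8e-06), the phosphatase PTPRJ (log2 0.22, adjusted p = 1.2e-05) and the RAS-ERK inhibitor SPRY1 (173 ± 1.60 to 152 ± 2.98 CPM, log2 -0.16, adjusted p = 0.00085). Of 14 transcripts that PDGF or RAS-ERK signalling is known to induce, 7 rose and 4 fell (median 0.18), against 12% of all genes called higher and 14.1% lower. PHLDA1 (464 ± 14.3 to 598 ± 29.9 CPM, log2 0.39, adjusted p = 2.3e-09) and the ERK phosphatase DUSP4 (39.9 ± 1.55 to 54.5 ± 2.85 CPM, log2 0.47, adjusted p = 9.4e-08) were among those that rose. MYC was among those that fell (456 ± 13.5 to 356 ± 6.04 CPM, log2 -0.33, adjusted p = 1.4e-08). For the change of the treatment effect from day 0 to day 5, 4 of the 14 were called higher and 3 lower. Their median there was 0.041, against 0.040 for all genes. At day 0 their median was 0.041 against 0.00046, with log2 values of 0.10 for PHLDA1, 0.01 for DUSP4 and -0.13 for MYC. Unadjusted p of these 3 by edgeR were 0.0079, 0.81 and 7e-04. The smallest p of the list at day 0 by edgeR were those of FOS (log2 0.46, unadjusted p = 0.00016), EGR1 (0.20, 0.00021) and JUNB (0.19, 0.00037). None of the 14 was called at day 0. At day 5 FOS (log2 0.55) and EGR1 (0.24) were among those called higher, and JUNB (-0.02) was not called.

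Among relatives, 2 of 5 other ligands of the PDGF/VEGF family were high enough to test: VEGFA fell from 39.4 ± 1.45 to 31.0 ± 1.28 CPM (log2 -0.32, adjusted p = 8.2e-05), and VEGFB, at 36.9 ± 1.93 and 33.9 ± 0.723 CPM, did not pass (adjusted p = 0.21). Of 6 related receptor tyrosine kinases FLT4 alone could be tested at day 5 and did not pass (log2 -0.32, adjusted p = 0.045). At day 0 none of the genes in these lists was called. In vehicle cells 22.2% of all genes were called higher and 16.7% lower from day 0 to day 5. There 21 of 36 adaptors and effectors rose and 1 fell, and of the 16 attenuators 11 rose and 1 fell. With LLY-283 the counts from day 0 to day 5 were 20 and 5 of the former and 11 and 5 of the latter, at 22.9% and 19.5% of all genes.

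**Figure D5:**
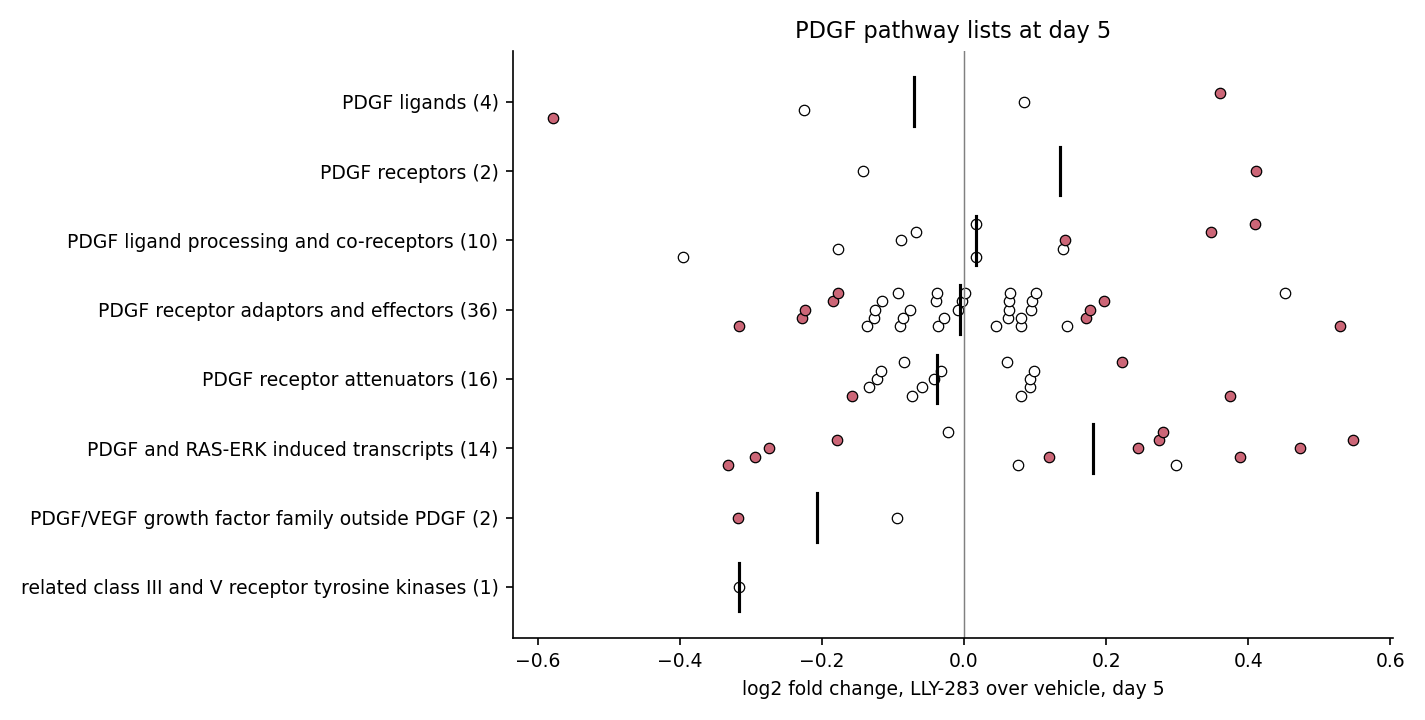
Log2 fold change of LLY-283 over vehicle at day 5 (horizontal axis) for each tested gene of the PDGF lists (rows, number tested in brackets); filled points passed an adjusted p under 0.01 and black bars are list medians. Members lie on both sides of 0 in the adaptor list (4 higher and 5 lower) and in the induced list (7 higher and 4 lower).

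Genes whose log2 CPM followed each member most closely over the 24 libraries were named by Pearson r among 14870 genes with a mean of at least 1 CPM. These libraries share 1 line and a common time course, so the values describe courses and carry no test. PDGFRA was most like RNF144A (r = 0.98), DOCK10 and PHLDA1 (both 0.97), and PDGFB most like MSH3 (0.95), GDAP1 (0.94) and COQ2 (0.93). PDGFC was most like LUM (0.97), itself one of the 12 fibroblast markers, LMBRD1 (0.97) and SPARCL1 (0.96). PDGFA was most like MLEC (0.92), CADM1 (0.91) and SPRY4 (0.89). Lower values led for the less abundant pair: SCARB1 (0.87), LZTS3 and IRS1 (both 0.86) for PDGFRB, and SLC2A10 (0.84), LINC-PINT and NID2 (both 0.79) for PDGFD. Among the members themselves, PDGFB ran opposite to PDGFRA (r = -0.80) and to PDGFC (-0.68), PDGFC ran with PDGFRA (0.75), and PDGFA had r of -0.15 with both PDGFB and PDGFRB.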

How the data were processed

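Transcript counts of the 24 libraries were deposited by the authors as estimated counts per Ensembl gene, made with kallisto from paired-end 41 bp reads of directional poly(A) libraries and the hg38 build. The kallisto version, its annotation and its strand setting are not given in the sources used here. The deposited values were whole numbers, so none needed rounding, and 58207 of 58676 identifiers had a symbol. Gene positions and lengths are from GENCODE v44 (GRCh38).

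Libraries were grouped by the treatment and day in their titles. Counts were tested over all genes with edgeR 4.0.16 (R 4.3.3): TMM scaling, filterByExpr by group, robust quasi-likelihood fits, Benjamini-Hochberg adjustment and a call at adjusted p under 0.01. Treatment was compared within day 0, day 5 and day 7, over days 1 to 3 with day as a block, and as an interaction with day over 22 libraries, and day 5 with day 0 within each treatment. CPM used TMM factors over all libraries, except that cell type marker levels and their sums are per total count alone, log2 CPM a prior count of 2, and each log2 fold change is a fitted value. SDs are over repeats, and counting error limits PDGFD most, with a median of 26 counts. The test was run on simulated counts with a common dispersion for all genes and no outlying libraries, so it was not checked under the spread of these data.

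Genes named from lists are the 3 of smallest p at day 5 in each pathway list, the highest marker of each cell type and the 3 genes most like each member. OLIG1, OLIG2, SOX8, SOX10, PCDH15, TYROBP, TWIST1, FAP, PRRX1, COL1A1, COL1A2, COL6A3, DCN, LUM, POSTN, KCNJ8, RGS5, FOS, EGR1 and JUNB are named outside that rule, after their values were seen. The members and lists were chosen with earlier results of these data known, and PDGFB was also named by the study from these libraries, so its direction here is not independent evidence. Alternatives were DESeq2 1.42.0, other scaling and filters, an adjusted p under 0.05, a replicate block, 1 fit of 22 libraries and leaving out each library. The value of 1 marker gene is not reported here.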

Additional observations from a re-analysis of the deposited data

Results flagged for a closer look

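For 3 genes the treatment difference at day 5 differed from that at day 0 by a test of the difference itself (edgeR, 12 libraries). The effect was lower at day 5 by a log2 value of -0.58 for PDGFB, and higher by 0.31 for PDGFC and by 0.39 for PDGFRA. The other 3 members did not pass that test.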

How the results depend on the processing

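Over 788 recomputed gene values, 758 kept their side of the threshold, 11 passed it newly, 19 lost it and none of the called values changed sign. The 758 include values that changed sign without being called in either fit. The day 5 calls of PDGFB, PDGFC and PDGFRA held under every alternative run. The count of members whose effect differed between day 5 and day 0 was 1 in the fit of 22 libraries. Without the filter on low counts the count was 1 at days 1 to 3 (PDGFB, adjusted p = 5.5e-05) and 3 for the interaction with day (PDGFC, 6.3e-05, and PDGFRA, 1.8e-05, joined PDGFB). That interaction count was 3 with days 0 to 5 only, and 2 without the 3 libraries of high COL1A1 (PDGFC, 0.0083), an alternative chosen after seeing the data. Over all genes these fits called 51 against 2742 for the difference of effects, 517 against 2 at days 1 to 3 and, for the interaction, 1217, 1984 and 253 in that order against 6. The causes were not tested. Repeat numbers did not pair the libraries (correlations of deviations from -0.076 to 0.053); with a replicate block the interaction count was 0 (PDGFB, adjusted p = 0.029), and no other count of called members changed. Leaving out 1 library at a time gave counts of 3 to 3 at day 5, 0 to 0 at day 0, day 7 and days 1 to 3, 5 to 5 for vehicle and 4 to 5 for LLY-283 over time, 2 to 3 for the difference of effects and 0 to 3 for the interaction. Of the interaction counts above 1, PDGFC joined without vehicle day 7 repeat 1 (adjusted p = 0.0094) or LLY-283 day 7 repeat 1 (0.0056), and PDGFRA without LLY-283 day 7 repeat 1 (0.00092) or repeat 2 (0.008). Of the 18 genes named as most like a member, 6 stayed among the 3 highest by Spearman's rho and 8 by Pearson's r without day 7. Depth limits PDGFD most, with a median of 26 counts.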
